A study of Mus musculus with 6 samples.

Results

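The genes described here make up the extracellular ATP and adenosine pathway: Entpd1 (CD39), Nt5e (CD73), Adora2a (the A2A adenosine receptor), Ada (adenosine deaminase), Adk (adenosine kinase), P2rx7 (the P2X7 receptor) and Art2b (the ADP-ribosyltransferase ART2.2). They were taken by symbol from a table of gene-level values, in which each of the 7 had exactly 1 of the 46078 rows. The table holds RNA-seq of splenic regulatory T cells (Treg cells), the CD4+ T cells that depend on the transcription factor Foxp3 and restrain immune responses, with 3 libraries labelled MAZR-cKO and 3 labelled WT. The libraries labelled MAZR-cKO came from MAZRf/f DEREG-eGFP+ CD4-cre+ mice, in which the floxed gene for the zinc finger factor MAZR is meant to be deleted by a Cre that is active in all T cells descended from CD4+ thymocytes, not in Treg cells alone. The libraries labelled WT came from wild type DEREG-eGFP+ mice, whose labels name neither a floxed allele nor Cre. Mice of both genotypes were C57BL/6 and 6 to 8 weeks old, and both carried DEREG, a transgene with Foxp3 regulatory sequence that drives eGFP. RNA came from sorted CD4+eGFP+ cells, and the labels do not say whether a preparation came from 1 animal or several, so p-values speak of the spread among these 6 libraries, which may be technical. The comparison asked whether the pathway's transcripts differed between the 2 labels.

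Extracellular ATP is an alarm signal that leaves stressed or dying cells. CD39 on the cell surface trims ATP and ADP to AMP, and CD73 removes the last phosphate to leave adenosine, which acts through the cAMP-raising A2A receptor to dampen T cells. Treg cells are known for carrying both enzymes, and adenosine made in this way is counted among their means of suppression. Adenosine deaminase turns adenosine into inosine, while adenosine kinase returns it to AMP inside the cell. P2X7 is an ATP-gated cation channel, and on mouse T cells ART2.2 can open it by attaching ADP-ribose from extracellular NAD, which leads to the shedding of surface proteins and can kill the cell.

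P2rx7 and Entpd1 were the members whose groups did not overlap, and both were lower in MAZR-cKO-labelled libraries. Of the 12040 genes tested, 5.74% were lower and 5% higher without overlap, and the Entpd1 groups all but touched. P2rx7 averaged 238 ± 8.7 CPM (read counts scaled to the size of the library) in MAZR-cKO-labelled libraries and 279 ± 7.6 CPM in those labelled WT (SD, n = 3 each), and Entpd1 averaged 51.2 ± 4.0 and 58.3 ± 2.5 CPM in the same order of labels. The means of Nt5e, Adora2a, Ada and Adk differed by -0.86%, -2.6%, -3.6% and 0.51%, and Art2b differed by -8.5%, less than the SD of either group. None of these differences passed the test over all genes. limma, a linear model fitted here to log2(CPM + 0.5) of every gene with at least 1 CPM in at least 3 libraries, called 0 of the 7 members at a Benjamini-Hochberg adjusted p under 0.05, where it called 5 of 12040 genes (0.0415%). This fit had the label as its only term, and the fit that pairs same-numbered libraries is given below. At an unadjusted p under 0.05, 2 members were lower, P2rx7 and Entpd1, and 0 were higher, beside 2.92% of all genes tested that were lower and 2.33% that were higher. edgeR's quasi-likelihood test and DESeq2, both on whole reads recovered from the CPM, also called 0 of 7, where edgeR called 0.0386% and DESeq2 0.241% of the genes they tested. All 7 members passed the filter on low values.

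**Figure D1:**
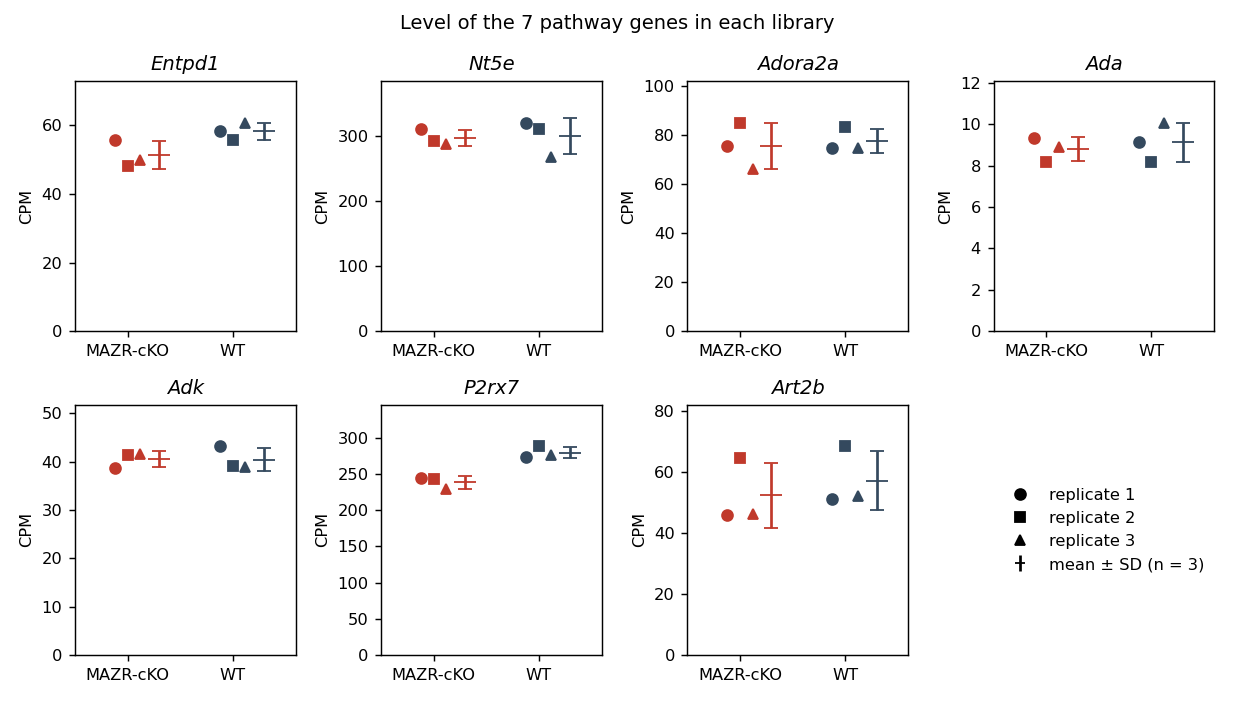
CPM of each pathway gene in MAZR-cKO-labelled libraries (red) and WT (dark blue), with marker shape for the replicate number and a bar for the mean ± SD of 3 libraries; each axis starts at 0. P2rx7 is the panel with a clear gap between the groups, 228 to 244 against 273 to 288 CPM, while the Entpd1 groups all but touch and the other panels overlap.

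The targeted gene goes against the labels. Patz1, which encodes MAZR, was at 177, 181 and 179 CPM in libraries labelled MAZR-cKO 1, 2 and 3 and at 71.6, 74.9 and 67.6 CPM in those labelled WT (log2 fold change 1.32, SE 0.05, limma adjusted p = 3.7e-06), and a gene-level sum does not show whether a deleted exon was present. Every direction below is therefore that of the labels. The libraries held 15481565 to 28184456 reads, with the deepest labelled MAZR-cKO 3. The sorted cells carried Treg transcripts in all 6 libraries, with Foxp3 at 1252 to 1415 CPM and Il2ra at 667 to 1090 CPM. Summed B cell markers (6 of 6 genes above the filter) ran from 55.0 to 91.9 CPM in MAZR-cKO-labelled libraries and from 63.7 to 76.0 CPM in those labelled WT, and summed myeloid markers (5 of 7 genes above the filter) from 39.4 to 112 CPM and from 65.2 to 83.3 CPM. Both were lowest in the library labelled MAZR-cKO 3. So were the sums of plasma cell, neutrophil, NK cell, and red cell and platelet markers, while that of CD8 T cell markers was highest there. Summed NK cell markers ran from 27.8 to 58.0 CPM and from 31.0 to 50.2 CPM, for libraries labelled MAZR-cKO and WT. Summed red cell and platelet markers (6 of 7 genes above the filter) were 24.9, 21.1 and 14.5 CPM in libraries labelled MAZR-cKO 1, 2 and 3 and 53.2, 31.1 and 19.1 CPM in those labelled WT, lower with the MAZR-cKO label at all 3 numbers. Of these genes the globin gene Hbb-bs was called lower when same-numbered libraries were paired by a block (limma adjusted p = 0.021), and not otherwise (limma adjusted p = 0.914). B cells, macrophages and platelets also make nucleotide enzymes or receptors, and the part of such cells in the values was not tested. The sum of 4 Y-linked transcripts, which male cells make, was 116, 0.480 and 199 CPM in libraries labelled MAZR-cKO 1, 2 and 3 and 217, 164 and 276 CPM in those labelled WT, and was lower with the MAZR-cKO label at all 3 numbers. Xist, a transcript of female cells, was at 1145, 1552 and 605 CPM in libraries labelled MAZR-cKO 1, 2 and 3 and at 561, 774 and 355 CPM in those labelled WT, and was higher with the MAZR-cKO label at all 3 numbers. Xist was thus present in all 6 libraries, and Y-linked transcripts above 100 CPM in 5 of them, so these 5 held RNA of both male and female cells. Each of these 5 thus held RNA of more than 1 animal, and how it came together was not tested. Xist and the Y-linked transcripts move with the label within numbers, as P2rx7, Entpd1 and Art2b do, and their part in the values was not tested. In bulk RNA, fewer cells of a type and less RNA per cell cannot be told apart.

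Entpd1, the gene for CD39, lies on chromosome 19 from 40612366 to 40741602 (GRCm38, the assembly that mm10 denotes, plus strand). It had 55.74, 48.0 and 49.9 CPM in libraries labelled MAZR-cKO 1, 2 and 3, against 58.3, 55.76 and 60.7 CPM in those labelled WT 1, 2 and 3. The groups were separated by a gap of 0.021 CPM, between the library labelled MAZR-cKO 1 and the one labelled WT 2, so the absence of overlap rests on less than 1 read's worth of signal. The ratio of the means was 0.879, and the log2 fold change was -0.19 (SE 0.07, 95% confidence interval -0.34 to -0.03, limma adjusted p = 0.914). Without the library labelled MAZR-cKO 2 the log2 fold change was -0.14. The difference within same-numbered libraries was -4.4%, -13.9% and -17.9% for replicates 1, 2 and 3. The values rested on 897 to 1438 reads a library, so counting error was at most 3.3% of a value.

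Nt5e, the gene for CD73, lies on chromosome 9 from 88327197 to 88372092 (plus strand). It had 311, 292 and 288 CPM in libraries labelled MAZR-cKO 1, 2 and 3 and 320, 310 and 268 CPM in those labelled WT. Both the highest and the lowest value belonged to libraries labelled WT, and the groups overlapped fully. The log2 fold change was -0.01 (SE 0.07, limma adjusted p = 0.995), and its 95% interval allows a fold between 0.891 and 1.11. With 4795 to 8306 reads a library, Nt5e was read deeply enough that counting added at most 1.4% to its spread. The ratio of Nt5e to Entpd1 per length of annotated exon was 3.62, 3.95 and 3.75 in libraries labelled MAZR-cKO 1, 2 and 3 and 3.56, 3.61 and 2.87 in those labelled WT. By this measure Nt5e stood above Entpd1 in every library, though the annotated lengths may hold exons that these cells do not use. The groups of this ratio were separated only between 3.62 in the library labelled MAZR-cKO 1 and 3.61 in the one labelled WT 2, and the ratio is given without a test.

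Adora2a, the gene for the A2A receptor, lies on chromosome 10 from 75316877 to 75334784 (plus strand) and was the only adenosine receptor gene above the filter. It stood at 75.6, 85.0 and 66.1 CPM in libraries labelled MAZR-cKO 1, 2 and 3 and at 74.8, 83.3 and 74.6 CPM in those labelled WT. Replicate 2 was highest under both labels. The log2 fold change was -0.04 (SE 0.09, 95% interval -0.25 to 0.16, limma adjusted p = 0.962). Of the other receptors, Adora1 was at 0 in all 6 libraries, and Adora2b and Adora3 stayed at or below 0.336 CPM.

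The enzymes that remove adenosine did not separate by label. Ada, on chromosome 2 from 163726584 to 163750239 (minus strand), had 9.32, 8.16 and 8.91 CPM in libraries labelled MAZR-cKO 1, 2 and 3 and 9.14, 8.18 and 10.07 CPM in those labelled WT. It is the member with the fewest reads, 149 to 257 a library, where counting error reached 8.2% of a value. Its log2 fold change was -0.05 (SE 0.12, 95% interval -0.31 to 0.22, limma adjusted p = 0.975). Adk, on chromosome 14 from 21052574 to 21448569 (plus strand), had 38.7, 41.4 and 41.6 CPM in libraries labelled MAZR-cKO 1, 2 and 3 and 43.2, 39.2 and 38.8 CPM in those labelled WT. The log2 fold change was 0.01 (SE 0.07, 95% interval -0.14 to 0.16, limma adjusted p = 0.995). The groups of both genes overlapped. In CPM Adk stood above Ada in every library. Per length of annotated exon (8526 bases for Adk and 2002 for Ada) the kinase and the deaminase were level. The Adk to Ada ratio was then 1.09 ± 0.11 in MAZR-cKO-labelled libraries and 1.05 ± 0.12 in those labelled WT (SD, n = 3 each). It rests on annotated lengths, which may hold exons that these cells do not use.

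P2rx7 lies on chromosome 5 from 122643911 to 122691432 (plus strand). The channel's gene had 244, 243 and 228 CPM in libraries labelled MAZR-cKO 1, 2 and 3, against 273, 288 and 277 CPM in those labelled WT 1, 2 and 3. The highest library labelled MAZR-cKO lay 29.5 CPM below the lowest labelled WT, a gap wider than the SD of either group. The ratio of the means was 0.853, and the log2 fold change was -0.23 (SE 0.05, 95% interval -0.33 to -0.12). Its limma p of 0.00090 ranked 32nd of the 12040 genes, which left an adjusted p of 0.339. With the replicate number as a block the limma adjusted p was 0.053. Between 3 libraries and 3 an exact permutation test of 1 gene cannot go below p = 0.1. Values rested on 3927 to 6589 reads a library, where counting error was at most 1.6%. Without the library labelled MAZR-cKO 2 the log2 fold change was -0.24. Of all genes tested, 5.74% were lower and 5% higher without overlap between the groups, and 2 of the 7 members, P2rx7 and Entpd1, were lower in this way.

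The P2rx7 and Entpd1 starts are shown because these are the members without overlap and each has a pair of annotated starts that the gene-level CPM adds together. Mouse T cells are known for a P2X7 variant that begins at an alternative first exon. The values here do not show which start these cells used, so matches before 1 start cannot be tied to the reads counted. The sequences are the 250 bases before each RefSeq start (GRCm38, plus strand, chr5:122643677-122643926, chr5:122650133-122650382, chr19:40612116-40612365 and chr19:40659520-40659769), with matches to the pattern GGGGNGGGG in capitals. MAZR belongs to a group of zinc finger proteins known to bind G-rich DNA, which is why a G-rich pattern was searched. It was read on both strands, so also as CCCCNCCCC, and it takes in the GC box GGGGCGGGG that Sp-type factors bind.
P2rx7 upstream start: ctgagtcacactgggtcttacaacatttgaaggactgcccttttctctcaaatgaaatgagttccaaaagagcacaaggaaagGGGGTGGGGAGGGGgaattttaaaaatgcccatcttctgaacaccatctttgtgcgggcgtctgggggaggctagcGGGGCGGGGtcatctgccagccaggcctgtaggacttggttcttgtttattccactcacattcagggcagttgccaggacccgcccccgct
P2rx7 downstream start: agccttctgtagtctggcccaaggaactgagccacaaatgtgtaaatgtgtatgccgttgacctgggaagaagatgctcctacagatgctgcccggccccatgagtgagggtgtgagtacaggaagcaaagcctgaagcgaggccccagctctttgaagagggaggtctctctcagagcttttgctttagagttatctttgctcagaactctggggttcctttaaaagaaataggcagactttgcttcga
Entpd1 upstream start: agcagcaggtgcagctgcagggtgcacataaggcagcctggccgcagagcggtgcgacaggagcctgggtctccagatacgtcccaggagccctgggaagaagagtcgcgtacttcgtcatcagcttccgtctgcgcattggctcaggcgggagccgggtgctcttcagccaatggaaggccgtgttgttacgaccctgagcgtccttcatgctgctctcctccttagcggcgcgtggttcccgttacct
Entpd1 downstream start: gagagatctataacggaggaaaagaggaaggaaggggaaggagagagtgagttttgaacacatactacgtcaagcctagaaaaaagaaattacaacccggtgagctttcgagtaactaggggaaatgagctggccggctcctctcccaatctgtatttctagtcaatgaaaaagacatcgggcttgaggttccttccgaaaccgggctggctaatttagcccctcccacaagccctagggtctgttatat
The window before the upstream P2rx7 start held 3 matches on the gene's strand, of which 2 overlap, and the other 3 windows held 0. RefSeq windows were found for 6 of the 7 members, all but Adora2a, and 4 of their 9 windows held the pattern (Ada, Nt5e and 1 of 2 each for Adk and P2rx7). The share was 20.6% over all 32851 RefSeq windows of this length. A match is a description of the letters, and the files hold no binding data.

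Art2b lies on chromosome 7 from 101576970 to 101585600 (minus strand). The gene for ART2.2 had 45.9, 64.7 and 46.3 CPM in libraries labelled MAZR-cKO 1, 2 and 3 and 51.0, 68.4 and 52.1 CPM in those labelled WT. Replicate 2 was the high library under both labels, 23.8% above the mean of the libraries labelled MAZR-cKO and 19.6% above that of the libraries labelled WT, and the groups overlapped. The coefficient of variation was 20.6% and 17.0% for the same labels, the largest of the 7 members, while counting error was at most 3.7% on 738 to 1335 reads. Within same-numbered libraries Art2b was -10.1%, -5.3% and -11.2% in MAZR-cKO-labelled libraries relative to those labelled WT. The log2 fold change was -0.13, with an SE of 0.15 without the replicate block (limma adjusted p = 0.926) and of 0.05 with it (limma adjusted p = 0.399). The neighbouring copy Art2a-ps, annotated as a polymorphic pseudogene, averaged 4.58 ± 0.76 CPM in MAZR-cKO-labelled libraries and 4.56 ± 1.7 CPM in those labelled WT (SD, n = 3 each). Its longest transcript was 85.2% identical to that of Art2b over 1286 aligned positions, with an identical run of up to 125 bases, so the split of reads between the copies is uncertain.

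**Figure D2:**
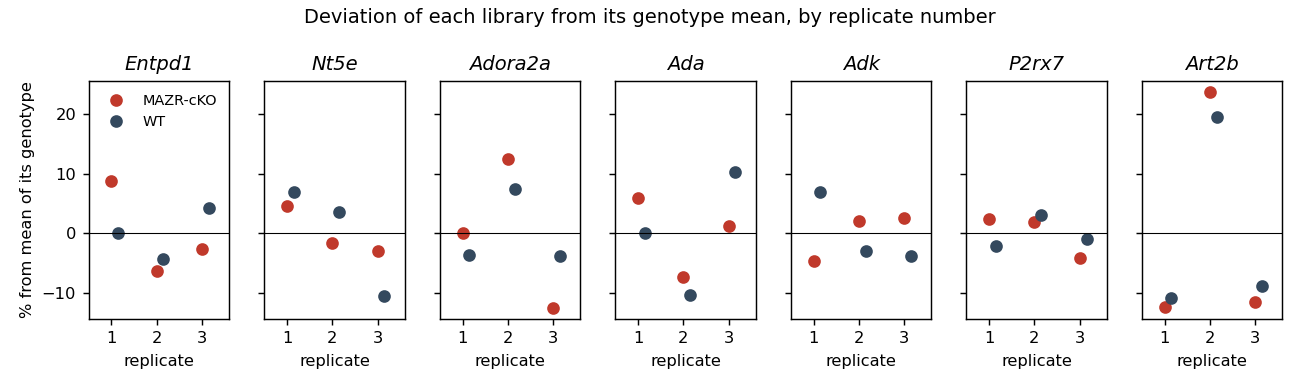
Percent difference of each library from the mean of its own label, by replicate number, for libraries labelled MAZR-cKO (red) and WT (dark blue). The Art2b points of the 2 labels lie side by side at every number, with replicate 2 at 23.8% and 19.6%, while those of Adk lie on opposite sides of 0 at all 3 numbers.

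The replicate number as a block lowered the limma SE more for some members than for others. The SE went from 0.149 to 0.053 for Art2b, 0.089 to 0.054 for Adora2a and 0.070 to 0.047 for Nt5e. It moved less for Entpd1 (0.068 to 0.058), P2rx7 (0.047 to 0.042), Ada (0.118 to 0.110) and Adk (0.066 to 0.067). Libraries of the same number lay on the same side of their label's mean at 3 of 3 numbers for Art2b and Ada, at 2 of 3 for Entpd1, Nt5e, Adora2a and P2rx7, and at 0 of 3 for Adk. With 3 deviations that sum to 0, this count of sides does not measure the share of spread. With the number as a block, limma called 46 of all genes (0.382%) and 0 of the 7 members. At an unadjusted p under 0.05 the block gave 3 lower members, P2rx7, Entpd1 and Art2b, and 0 higher, beside 6.66% of all genes lower and 3.98% higher. P2rx7, Entpd1 and Art2b were also the members lower in all 3 same-numbered pairs, as were 19.2% of all genes, while 0 members and 12.9% of all genes were higher in all 3. Fold changes were below 0 for 6 of 7 members and for 56.1% of all genes, whose median was -0.01.

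**Figure D3:**
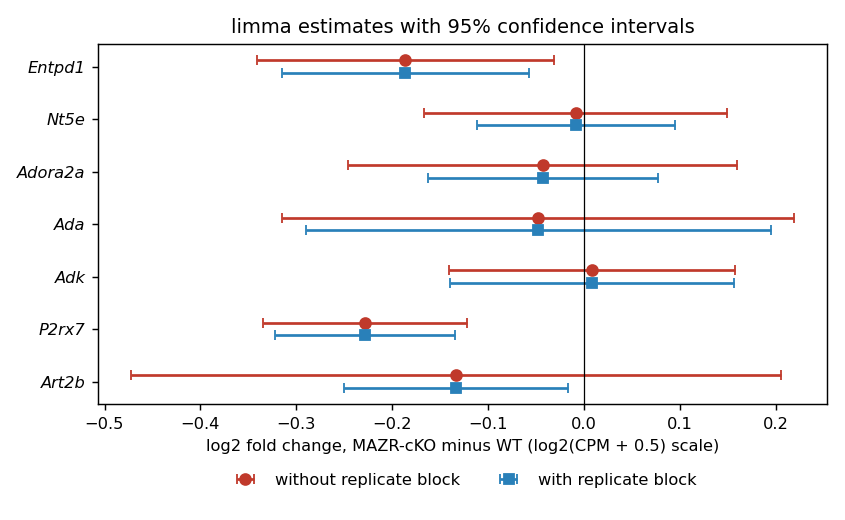
log2 fold change of each member, libraries labelled MAZR-cKO minus WT, with 95% confidence intervals from limma without the replicate block (red circles) and with it (blue squares). P2rx7 and Entpd1 lie below 0 in both fits at -0.23 and -0.19, Art2b has an interval that excludes 0 with the block alone, and the other intervals include 0.

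Compared per length of annotated exon, P2rx7 was the most abundant of the 7 transcripts. It averaged 43.4 ± 3.9 CPM per kb over all 6 libraries (SD), ahead of Nt5e at 34.7 ± 2.2, Adora2a at 25.0 ± 2.2, Art2b at 19.4 ± 3.4, Entpd1 at 9.81 ± 0.88, Adk at 4.75 ± 0.22 and Ada at 4.48 ± 0.36 CPM per kb. Adora2a and Art2b overlapped across libraries, as did Adk and Ada, and every other neighbour in this order was separated in all 6 libraries. The receptors and CD73 thus stood above CD39, and the enzymes that remove adenosine stood last. The length takes in every annotated exon, whether or not these cells use it. In CPM alone Nt5e stood above P2rx7, at means of 298 and 259 CPM over all 6 libraries.

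**Figure D4:**
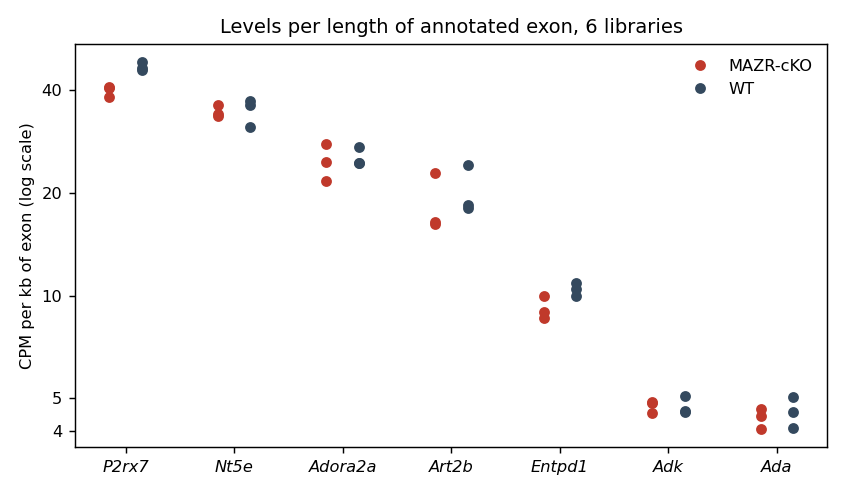
CPM per kb of annotated exon (log axis) for each member in the 3 libraries labelled MAZR-cKO (red) and the 3 labelled WT (dark blue), ordered by the mean of all 6. P2rx7 leads at a mean of 43.4 CPM per kb, and Adk and Ada share the low end near 4.75 and 4.48 CPM per kb.

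Among the other genes of the pathway, limma called 0 of 53 tested in either direction, with or without the replicate block, and a further 28 lay below the filter. They came from 9 lists of ATP release, receptors, surface and intracellular enzymes, cAMP signalling and P2X7 outputs. At an unadjusted p under 0.05, 4 were lower and 0 higher, beside 2.92% and 2.33% of all genes tested. With the block 8 were lower and 2 higher, beside 6.66% and 3.98% of all genes. The median log2 fold change of the 53 was -0.03, near the -0.01 of all genes tested, and 12 were lower and 1 higher without overlap, beside 5.74% and 5% of all genes.

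P2rx4, the other P2X receptor gene above the filter, begins 16.1 kb beyond the end of P2rx7. Its product is an ATP-gated channel of higher ATP affinity. It had 35.1, 41.4 and 37.7 CPM in libraries labelled MAZR-cKO 1, 2 and 3 and 30.1, 36.7 and 33.3 CPM in those labelled WT. Each library labelled MAZR-cKO was above its same-numbered partner, opposite to P2rx7, though the groups overlapped and the log2 fold change of 0.19 (SE 0.09) had a limma adjusted p of 0.914, or 0.297 with the block. The P2rx7 to P2rx4 ratio per length, chosen after the values of both were seen, was 8.18, 6.90 and 7.13 in libraries labelled MAZR-cKO 1, 2 and 3 and 10.7, 9.23 and 9.77 in those labelled WT. The ratio did not overlap between the labels and is given without a test. The remaining 5 P2X genes were below the filter, with P2rx6 at 0 in every library. Of the nucleotide-sensing P2Y receptors P2ry13 and P2ry14 passed the filter, at 1.03 ± 0.67 and 1.19 ± 0.37 CPM in MAZR-cKO-labelled libraries and 0.884 ± 0.436 and 1.25 ± 0.04 CPM in those labelled WT (SD, n = 3 each).

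For the release of ATP, Slc17a9, the vesicular nucleotide transporter, averaged 129 ± 3.7 CPM in MAZR-cKO-labelled libraries and 134 ± 11 CPM in those labelled WT. The pannexin channel gene Panx1 averaged 68.5 ± 0.66 and 73.5 ± 1.8 CPM for the same labels and did not overlap (limma adjusted p = 0.914). Calhm2 averaged 22.2 ± 1.8 and 24.5 ± 0.50 CPM. All 5 tested genes of this list had fold changes below 0, as did 56.1% of all genes tested. Their median was -0.10, beside -0.01 for all genes, and 0 of them had an unadjusted limma p under 0.05. Of the 5, 2 were lower and 0 higher without overlap, beside 5.74% and 5% of all genes tested. Among ectonucleotidases Enpp1, which splits ATP to AMP and pyrophosphate, averaged 25.2 ± 0.62 CPM in MAZR-cKO-labelled libraries and 27.6 ± 1.1 CPM in those labelled WT, again without overlap and without a call (limma adjusted p = 0.914). Entpd2, Entpd3 and Entpd8, relatives of CD39, stayed at or below 0.224 CPM. CD38, which consumes the NAD that ART2.2 also uses, had Cd38 at 26.1 ± 3.2 CPM in MAZR-cKO-labelled libraries and 26.1 ± 0.73 CPM in those labelled WT.

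In uptake and conversion, the concentrative nucleoside transporter gene Slc28a2 averaged 175 ± 6.4 CPM in MAZR-cKO-labelled libraries and 179 ± 4.0 CPM in those labelled WT. Dpp4, the surface anchor of adenosine deaminase in human cells, averaged 113 ± 15 and 118 ± 12 CPM for the same labels. None of the 13 tested genes of this list was called. Slc29a1, an equilibrative transporter of adenosine, averaged 75.7 ± 7.2 CPM in MAZR-cKO-labelled libraries and 85.5 ± 8.0 CPM in those labelled WT (limma adjusted p = 0.914). In the cAMP list, Adcy7, an adenylyl cyclase, averaged 567 ± 47 and 574 ± 52 CPM, Prkar1a, a regulatory subunit of protein kinase A, 475 ± 20 and 501 ± 6.0 CPM, and Gnas, the stimulatory G protein subunit, 471 ± 30 and 501 ± 13 CPM for the libraries labelled MAZR-cKO and WT. Of its 17 genes 0 were called, 5 were lower and 1 higher without overlap (5.74% and 5% of all genes tested), and the median log2 fold change was -0.03.

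Of 10 tested P2X7 outputs 0 were called. Cd27, which encodes a surface protein shed after P2X7 opens, averaged 487 ± 33 CPM in MAZR-cKO-labelled libraries and 533 ± 29 CPM in those labelled WT without overlap (limma adjusted p = 0.914), and Il6ra averaged 479 ± 9.6 and 462 ± 12 CPM for the same labels. Cd27 was the 1 gene of this list without overlap, beside 5.74% of all genes tested that were lower in this way. The inflammasome gene Nlrp3 was below the filter, at 0.208 to 0.932 CPM, while Pycard, Casp1 and Gsdmd passed it. Pycard was lower in all 3 pairs, as were 19.2% of all genes, and its groups overlapped (limma adjusted p = 0.914, or 0.112 with the block). Casp1 and Gsdmd had log2 fold changes of 0.05 and 0.04.

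**Figure D5:**
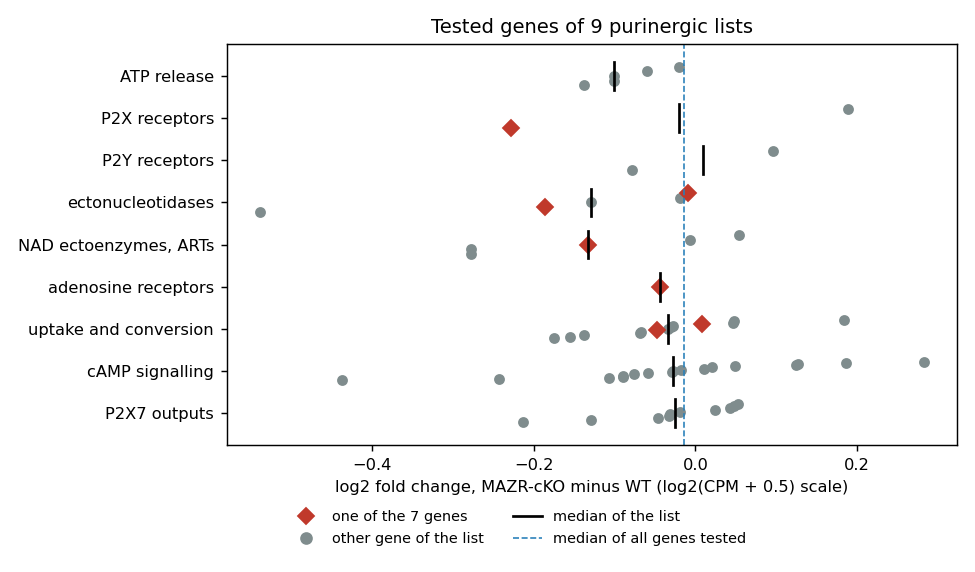
log2 fold change, libraries labelled MAZR-cKO minus WT, of every tested gene in 9 lists of the pathway, with red diamonds for the 7 members, grey circles for other genes, black bars for list medians and a dashed line for the median of all genes tested, -0.01. P2rx7 at -0.23 and P2rx4 at 0.19 lie at opposite ends of the P2X row, and list medians lie between -0.13 and 0.01.

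The genes whose pattern over the 6 libraries lay nearest to each member's were sought among genes with a mean of at least 10 CPM, by the mean absolute difference of log2 deviations from their own means. Mdfic and Ptch1 lay nearest to Entpd1 (0.020 and 0.025), Mtrr and Ggcx to Nt5e (0.0098 and 0.016), and Slc45a4 and Pear1 to Adora2a (0.021 and 0.022). Larp4 and Rbm3 lay nearest to Ada (0.014 and 0.020), and 1110012L19Rik and Ddx47 to Adk (0.012 and 0.013). For the members that varied most between libraries or labels the nearest genes were farther off, Erf and Tagap1 for P2rx7 (0.034 and 0.035) and Tagln2 for Art2b (0.054). The distances describe 6 libraries only.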

How the data were processed

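RNA-seq was analysed from 1 table with a column for each of 3 libraries labelled MAZR-cKO and 3 labelled WT. The values are CPM as deposited by the authors. The submitters' processing notes name FastQC, STAR 2.5.2b, Subread 1.5.1, R 3.4, edgeR and mm10, with no roles, settings or strand mode. Divided by the smallest value of their library, 100% of the values were whole within 0.01 reads, and these reads served the count tests, where edgeR called 5 genes. Totals were 15481565 to 28184456 reads.

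The main test, in limma 3.58.1 under R 4.3.3, used log2(CPM + 0.5), a variance trend on intensity and the label as its only term. It covered 12040 genes with at least 1 CPM in at least 3 libraries, with adjusted p under 0.05 as the call. Fold changes on this scale understate those of low genes. edgeR 4.0.16 and DESeq2 1.42.0 on recovered reads were alternatives. The limma and edgeR fits without the block were tested on simulated counts without pairs, with changes larger than those of the members. The fits with the block and DESeq2 were not tested in this way. Coordinates and exon lengths come from GENCODE M21, and start sequences from RefSeq on GRCm38. Members and gene lists were chosen with earlier results of these data known.

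Replicate numbers come from the titles, and the descriptions give libraries of a number a shared code. After subtraction of the label means, same-numbered libraries correlated across genes at 0.40, 0.38 and 0.38, each over the limit of 0.1, so the numbers were taken as pairs in the fits with a block. Differently numbered ones correlated at -0.21 to -0.16. These negative values follow from the subtraction, since the 3 deviations within a label sum to 0, and add no support for the pairing. Named genes are all members, Patz1, the 3 most abundant tested genes of each list, any pathway list gene called with or without the block, and the 2 genes nearest each member in pattern; some genes under this rule are not reported here. Slc29a1, Hbb-bs, Xist, Pycard, Casp1, Gsdmd, the genes at 0 and below the filter, and the P2rx7 to P2rx4 ratio were named after their values were seen.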

Additional observations from a re-analysis of the deposited data

How the results depend on the processing

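P2rx7 and Entpd1 were lower in the libraries labelled MAZR-cKO under all 18 alternatives, with log2 fold changes of -0.26 to -0.20 and -0.25 to -0.14, and Patz1 and P2rx4 stayed higher under all 18. All alternatives refit the same libraries. Because the P2rx7 and Entpd1 groups did not overlap, leaving out libraries, the block or another pseudocount could not reverse their sign. The constant sign is therefore not separate support. The count of genes called was 46 with the replicate block, in limma and in edgeR alike, and 33 in DESeq2, against 5. It ran from 4 to 279 when libraries were left out, with 14 without the library labelled MAZR-cKO 3, and with the block 8 without replicate 1, 45 without replicate 2 and 279 without replicate 3. The block alone changed no call among the members or the other pathway genes. The count of members called ran from 0 to 1 and that of pathway genes from 0 to 3 on leaving out libraries. Both maxima came with the replicate block and without replicate 3, where P2rx7 (log2 fold change -0.20, limma adjusted p = 0.033), Slc29a1 (-0.29, 0.018) and Cd27 (-0.19, 0.046) were called lower, and the cause was not tested. Over all settings the adjusted p of P2rx7 ran from 0.033 to 0.969 and that of Entpd1 from 0.288 to 1.00. The members with small differences changed sign when libraries were left out. Without the block, Nt5e ran from -0.086 to 0.041, Adora2a from -0.13 to 0.049, Ada from -0.12 to 0.022, Adk from -0.019 to 0.056 and Art2b from -0.30 to 0.0014. With the replicate block, Nt5e was 0.0086 without replicate 1 and 0.029 without replicate 2, Adk -0.028 without replicate 2 and -0.038 without replicate 3, and, also without replicate 3, Adora2a 0.022 and Ada 0.012. Nt5e was 0.0030 in edgeR with the block. With 149 to 257 reads a library, Ada is the member that depth limits most.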
